A study of Mus musculus with 6 samples.

Results

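The libraries described here hold RNA from wild type cells sorted from mouse testis as carrying THY1 on their surface and lacking KIT. They are the 3 wild type libraries among the 6 of the series, taken as the count columns lettered C with the numbers 1 to 3. The labels do not spell that letter out, so the assignment rests on the working rule for this description. The mice were C57BL/6J at postnatal day 4, and their genotype is labelled wild type. Cells were freed from the testis by enzymes in a pair of digestion steps, sorted by flow cytometry, and amplified by Smart-Seq2, a method that copies polyadenylated RNA from very small inputs along its whole length. The other libraries of the series, from mice lacking Bud31, were not used, and no genotypes were compared. The labels do not say how many cells or mice went into a library, whether the libraries came from separate mice, or whether the wild type mice carried floxed alleles or a Cre. The spread over the libraries may therefore be technical in part.

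Spermatogonial stem cells are the germ cells that keep sperm production going through adult life. In the days after birth the gonocytes of the fetal testis resume division and settle on the basement membrane as the first spermatogonia, some of which become stem cells. These cells receive GDNF from Sertoli and other somatic cells through the co-receptor GFRA1 and the kinase RET, and the factor ETV5 acts downstream. THY1 is widely used to enrich them, but it is also carried by fibroblasts, other mesenchymal cells and T lymphocytes. KIT marks spermatogonia that have begun to differentiate.

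The libraries held 13577015, 18744466 and 17131113 reads assigned to genes. They differed in how many genes they covered. Library 1 had reads for 22300 genes, library 2 for 18171 and library 3 for 13762. At an equal number of reads, that of the smallest library, the expected counts were 22300, 17939 and 13610, so the order did not follow depth. In library 3, 184 genes had fewer than 3 reads although both other libraries held at least 20 CPM (counts per 1000000 reads of the library) of them, against 2 such genes for library 1 and 3 for library 2. Over 13690 protein-coding genes averaging 1 CPM or more, Pearson's r of log2(CPM + 1) across genes was 0.85 between libraries 1 and 2, 0.75 between 1 and 3, and 0.74 between 2 and 3. Genes are not independent replicates, so no test goes with these values. Library 3 stood apart, and values below are mostly given for each library in the order 1, 2 and 3. Of the 16439 protein-coding genes read in any library, 42.4% were highest in library 1, 29.3% in library 2 and 28.3% in library 3. Over the 9475 that averaged 10 CPM or more the shares were 31.2%, 29.1% and 39.7%.

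**Figure D1:**
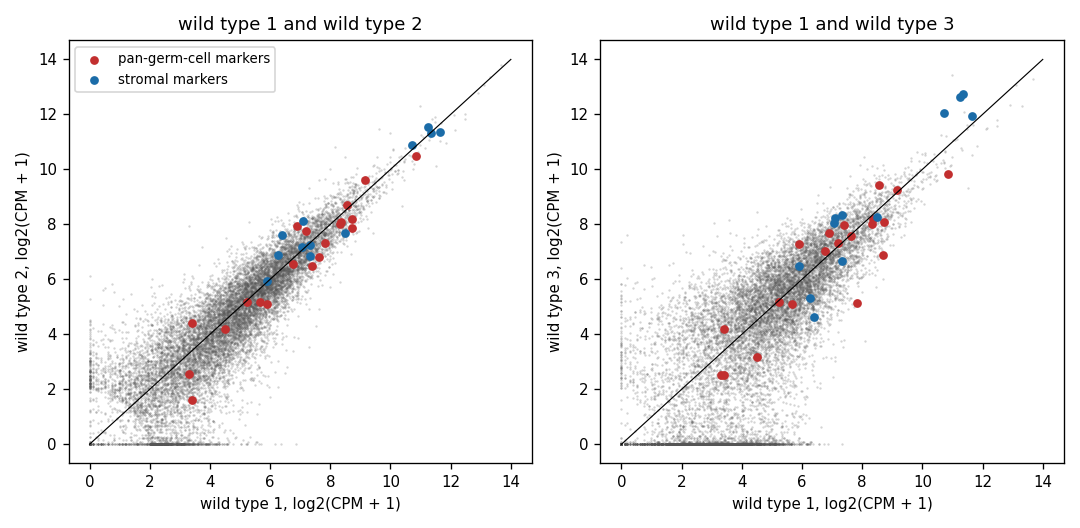
Each grey point is a protein-coding gene averaging 1 CPM or more, at its level in library 1 (x axis) and in library 2 or 3 (y axis), both as log2(CPM + 1), with the line of equal levels. Red points are the 20 pan-germ-cell markers and blue points the 12 stromal markers; the row of grey points at 0 in the right panel are genes read in library 1 and not in library 3.

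Germ cell RNA was present at high levels in every library. Ddx4, an RNA helicase of the germ line (ENSMUSG00000021758, chromosome 13, 112598333 to 112652475 on the minus strand, GRCm38), stood at 574, 774 and 615 CPM. Dazl, an RNA-binding protein that germ cells need for their development (ENSMUSG00000010592, chromosome 17, 50279395 to 50293636 on the minus strand), stood at 1843, 1436 and 909 CPM. Levels of different genes are compared in TPM (transcripts per 1000000), which divide the reads of a gene by its exon length before scaling. On that scale Dazl had 1151 ± 308 TPM (SD, n = 3) and Ddx4 696 ± 122 TPM, while the median protein-coding gene had 4.08 TPM. The order of the libraries differed between these genes.

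The proximal promoters of many germ line genes held a short sequence. The E-box CACGTG, which reads the same on both strands, is bound by bHLH proteins such as USF1 and the MYC, MAX and MGA family. MGA and MAX are part of a Polycomb complex known to silence germ line genes in embryonic stem cells. The 250 bases before the RefSeq start site were searched for it in 27025 promoters, and 6.05% held it. Among promoters of protein-coding genes with at least 10 CG pairs the share was 9.68%, and among protein-coding genes with at least 10 CPM in all 3 libraries it was 9.78%. Of the 20 pan-germ-cell markers 15 had a promoter in the table and 7 of these held the E-box (46.7%). In the piRNA pathway it was 7 of 18 (38.9%), in the meiosis list 6 of 25 (24%), among stem cell regulators 2 of 17 (11.8%) and among stromal markers 1 of 8 (12.5%). Among genes of G1/S and replication it was 4 of 23 (17.4%), among Sertoli markers 2 of 14 (14.3%) and among genes of G2/M 1 of 19 (5.26%). The first 3 lists share members, and together 14 of their 49 promoters held the motif (28.6%). A match is a description of these letters and shows neither binding nor a cause.

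The 250 bases before the RefSeq start of Ddx4 show the setting of its E-box, 23 bases before that start and in a stretch with 31 CG pairs (chr13:112652311-112652560, minus strand, RefSeq on GRCm38.p6, motif in capitals). The annotations differ here. The GENCODE gene begins at 112652475 on the minus strand, inside this stretch, so by GENCODE the E-box lies within the gene.
Ddx4: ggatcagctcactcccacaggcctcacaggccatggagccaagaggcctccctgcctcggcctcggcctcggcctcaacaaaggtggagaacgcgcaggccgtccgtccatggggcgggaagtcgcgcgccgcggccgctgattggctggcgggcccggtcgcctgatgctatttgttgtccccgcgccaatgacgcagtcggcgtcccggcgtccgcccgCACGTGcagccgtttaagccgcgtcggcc

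The same motif in 8 further promoters is shown with its neighbouring bases, since the flanks differ from gene to gene. The genes are Fkbp6, Mael, Hormad1, Stk31, Sycp1, Mov10l1, Tdrd1 and Tdrd9. The distance from the motif to the RefSeq start site runs from 5 bases in Tdrd1 to 240 in Mov10l1. Fkbp6, Hormad1 and Tdrd9 hold a second copy that is not shown. Promoters of Stag3, Tex12, Rec114, Sycp3 and Piwil1 also held the motif and are left out here. Rec114, Sycp3 and Piwil1 were low, with means of 10.8, 6.19 and 17.5 CPM, so the motif was not limited to highly expressed genes. Capitals mark the E-box in each line, read 5′ to 3′ on the strand of the gene.
Fkbp6 (chr5:135350064-135350093, minus strand): gcgtctatcgatCACGTGccgtttctctcg
Mael (chr1:166238950-166238979, minus strand): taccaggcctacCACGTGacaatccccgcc
Hormad1 (chr3:95559645-95559674, plus strand): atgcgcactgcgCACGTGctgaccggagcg
Stk31 (chr6:49395472-49395501, plus strand): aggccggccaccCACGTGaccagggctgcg
Sycp1 (chr3:102936177-102936206, minus strand): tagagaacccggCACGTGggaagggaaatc
Mov10l1 (chr15:88982744-88982765, plus strand): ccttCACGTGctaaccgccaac
Tdrd1 (chr19:56826186-56826208, plus strand): tggggctgcgcgCACGTGggagt
Tdrd9 (chr12:111971382-111971411, plus strand): ggtctccataaaCACGTGcctgtccaggtc

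Several factors that can read this motif were themselves present. Mga was at 342, 174 and 200 CPM, and its partner Max at 48.5, 17.7 and 67.5 CPM. Usf1 was at 55.8, 39.9 and 169 CPM. Mga was highest in library 1, and the other factors were highest in library 3.

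Most genes of the germ line list were expressed, and their sum was similar in the 3 libraries. A gene is called expressed here when it reached 10 CPM in all 3 libraries, which 7079 of 21870 protein-coding genes did (32.4%). Of the 20 pan-germ-cell markers 16 were expressed, and the exceptions Rhox13, Dnd1, Sycp3 and Dppa5a had mean levels between 5.44 and 15.7 CPM. The median marker had 116 TPM. Summed over the list, the libraries held 5428, 4737 and 4372 CPM, so the highest was 1.24 times the lowest. Among genes averaging 10 CPM or more, a gene is called steady when its highest library was at most 1.5 times its lowest, which held for 1677 of 9475 (17.7%). Of the 18 germ markers with that mean, 7 were steady: Ddx4, Stk31, Piwil2, Mov10l1, Tdrd9, Tex13b and Piwil4. A gene is called variable when the highest library was at least 8 times the lowest, which held for 1356 of 9475 genes (14.3%) and for none of the 18 germ markers. Gtsf1, a partner of PIWI proteins, had the widest range of the 18 at 226, 159 and 33.9 CPM, lowest in library 3. Steadiness grows with level: among all genes between 100 and 200 CPM, where the median germ marker of 168 CPM lies, 25.8% were steady and 1.24% variable.

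The piRNA pathway, which makes small RNAs against transposons in germ cells, summed to 3196, 3336 and 3328 CPM, with the highest library at 1.04 times the lowest. Of its 21 genes 17 were expressed, and 8 of the 19 averaging 10 CPM or more were steady, against 21.3% of all genes between 50 and 100 CPM, where the list's median lies. The list shares members with the pan-germ-cell markers, Ddx4 and Mael among them, so the steady counts of these lists overlap. Piwil2, a PIWI protein that takes part in making piRNAs before and around birth, was at 329, 270 and 290 CPM. Asz1, a scaffold at germ cell mitochondria, was at 273, 243 and 231 CPM, and Tdrd1, a Tudor protein of the same granules, at 137, 103 and 129 CPM. All 3 were steady. Fkbp6, a co-chaperone in piRNA loading, was the highest of the list at 936 ± 217 TPM (SD, n = 3), with 890, 1172 and 745 TPM by library. Mael followed at 920 ± 389 TPM, with 642, 754 and 1364 TPM. Piwil4, which enters the nucleus of fetal germ cells, was lower at 49.6, 35.1 and 33.4 CPM, and Piwil1, known from later stages, was variable at 4.35, 7.15 and 40.9 CPM. Over libraries 1 and 2 alone, 53.9% of genes averaging 10 CPM or more were steady and 1.71% variable, and 12 of 18 pan-germ-cell markers (66.7%) were steady. That share was not particular to germ markers. It was also 66.7% for the stromal markers (8 of 12), 78.1% for ribosomal proteins (57 of 73) and 31.6% for stem cell regulators (6 of 19). Shares by level were not taken over these libraries.

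Genes of the meiosis list were present although the cells were taken days before meiosis begins in the mouse testis. Of its 28 genes 15 were expressed (53.6%). Tex19.1, which limits transposons in germ cells, stood highest at 283, 164 and 372 CPM. The cohesins Smc1b (191, 189 and 296 CPM) and Stag3 (158, 151 and 318 CPM) and the synaptonemal complex proteins Sycp1 (325, 176 and 167 CPM) and Syce1 (108, 82.2 and 84.2 CPM) were read in every library. Some genes of meiotic recombination were low. Rec114, which takes part in making the breaks, was at 11.3, 10.5 and 10.6 CPM. Spo11, the enzyme that makes the breaks, was at 4.57, 7.68 and 0.0584 CPM, and Prdm9, which places them, at 1.03, 0 and 0.117 CPM. Here 3 reads, the limit that a count of 0 allows, correspond to 0.221, 0.160 and 0.175 CPM, a limit that covers counting error only.

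Among regulators of the stem cell state the GDNF pathway was present on the receiving side. Gfra1, the GDNF co-receptor, was at 103, 219 and 99.5 CPM. Ret, its kinase, was at 117, 192 and 74.8 CPM. Etv5 was at 154, 326 and 237 CPM. All 3 genes were highest in library 2, by 2.12 to 2.56 times over the lowest library. Lhx1, another gene induced by GDNF, did not share that order, at 69.8, 59.9 and 39.4 CPM, and Bcl6b was at 80.8, 143 and 4.67 CPM. Gdnf itself had 3.83 CPM in library 1 and no reads in the others.

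Of the 25 stem cell regulators 15 were expressed (60%), and their sum was 2147, 2306 and 2147 CPM. Sall4, a zinc finger factor of undifferentiated germ cells, led at 435, 277 and 425 CPM. Ccnd2, a cyclin of G1, was the only steady member at 588, 501 and 667 CPM. Zbtb16, the factor also called PLZF, was at 48.3, 48.5 and 255 CPM, with library 3 far above the others. The opposite order was seen for Utf1 at 88.2, 32.5 and 11.1 CPM and for Foxo1 at 61.4, 27.6 and 11.7 CPM. Id4, a marker of the most primitive spermatogonia in many studies, was low at 22.4, 7.95 and 0 CPM. Nanos3 was at 29.6, 6.51 and 0 CPM, while Nanos2, Shisa6 and Pdx1 stayed under 1 CPM on average and Pax7 and Eomes under 5 CPM.

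The genes used for the sort were both low in RNA. Thy1 was at 13.3, 10.1 and 16.2 CPM, just over the level called expressed, and Kit at 29.2, 60.8 and 0.350 CPM. Per length the levels were 14.3 ± 4.13 TPM for Thy1 and 10.5 ± 10.7 TPM for Kit (SD, n = 3). By library, Thy1 had 13.3, 10.7 and 18.8 TPM and Kit 9.76, 21.6 and 0.136 TPM, so Kit lay above Thy1 in library 2 and had 6 reads in library 3. Stra8, which retinoic acid induces, was at 67.0, 204 and 2.16 CPM, and Dmrtb1 at 1.92, 23.2 and 13.4 CPM. Sohlh1 was at 52.4, 85.6 and 17.4 CPM and Sohlh2, its partner, at 181, 221 and 102 CPM. Kit, Stra8, Sohlh1 and Sohlh2 were all highest in library 2 and lowest in library 3. Of the 16 genes in the progenitor and differentiation list 5 were expressed (31.2%), close to the 32.4% of all genes, and of the 15 with reads 9 were highest in library 2, as were 29.3% of all genes with reads. In the list of 14 surface genes, which holds both, 10 had a higher mean TPM than Thy1, and Kit, Adgra3 and L1cam a lower one. The list median was 28.8 TPM. Cd9 led it with 656, 261 and 445 TPM, followed by Itgb1 with 198, 314 and 349 TPM and Mcam with 200, 403 and 105 TPM. Epcam, an epithelial and germ cell adhesion protein, was at 172, 166 and 34.0 CPM.

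**Figure D2:**
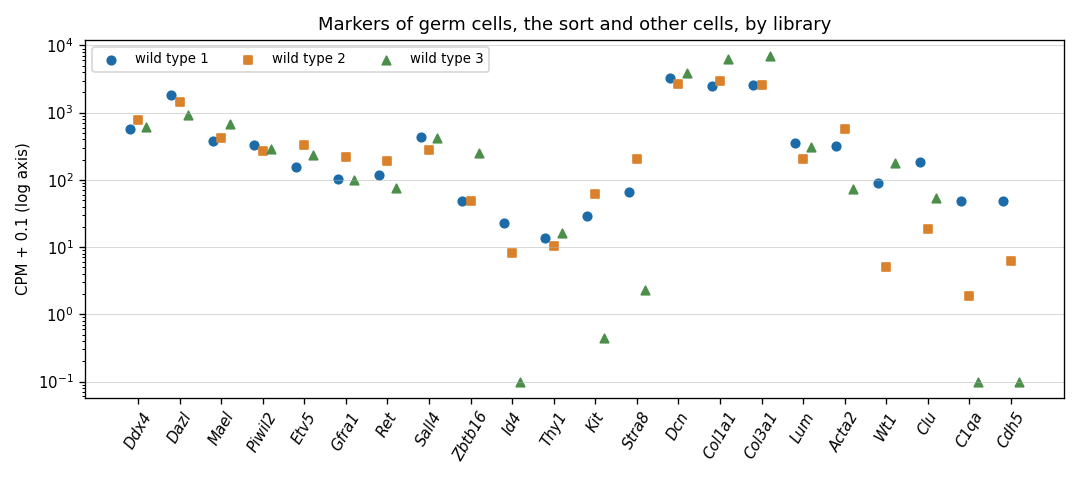
Levels in CPM + 0.1 on a log axis for markers of germ cells (Ddx4 to Piwil2), of spermatogonial stem cells (Etv5 to Id4), of the sort and of differentiation (Thy1, Kit, Stra8) and of somatic cells (Dcn to Cdh5); each symbol is a library. For Ddx4 and Piwil2 the 3 symbols lie close together, while Kit and Stra8 are lowest and Col1a1 and Col3a1 highest in library 3.

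Matrix genes of stromal cells were abundant too. Dcn, a small proteoglycan of connective tissue (ENSMUSG00000019929, chromosome 10), stood at 3223, 2627 and 3906 CPM. Col1a1, a chain of type I collagen (ENSMUSG00000001506, chromosome 11), stood at 2452, 2955 and 6323 CPM. Col3a1 was at 2618, 2588 and 6854 CPM and Col1a2 at 1688, 1871 and 4275 CPM. The 3 collagens lay close together in libraries 1 and 2 and were more than 2 times higher in library 3. All 12 genes of the stromal list were expressed, with a median of 248 TPM. Tcf21, a factor of gonadal mesenchyme, was at 58.8, 60.3 and 89.1 CPM, and Pdgfra, a receptor of such cells, at 76.3, 116 and 39.4 CPM. Libraries labelled as spermatogonial stem cells thus held RNA of germ cell and of stromal markers side by side.

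How much of each there was depends on the scale. Summed in TPM, the 20 germ markers came to 5447, 5114 and 5029 and the 12 stromal markers to 5045, 5528 and 10646. In CPM, where the long collagen transcripts weigh more, the stromal sum was 11145, 11311 and 22798, which is 2.05, 2.39 and 5.21 times the germ sum. Library 3 had the lowest germ sum and the highest stromal sum. In bulk libraries, more cells of a type and more RNA per cell cannot be told apart. The part of the stromal RNA in any level below was not tested.

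Markers of the seminiferous supporting cells and of vessels, blood and macrophages had lower sums that were unequal between libraries. In TPM the sums of these lists ran from 12.6 to 936, against 5029 or more for the germ markers. The 23 Sertoli markers summed to 663, 180 and 492 CPM. Of the 12 averaging 10 CPM or more 9 were variable, against 14.3% of all genes. Between 10 and 50 CPM, where the list's median lies, 24.8% of all genes were variable. Wt1, a factor of the Sertoli lineage that some stromal cells also make, was at 89.6, 5.01 and 177 CPM, and Clu at 185, 18.8 and 52.8 CPM. The Sertoli hormone gene Amh was at 3.24, 0 and 4.44 CPM, and Fshr had reads only in library 1. Over libraries 1 and 2 alone 6 of 11 Sertoli markers were variable, against 1.71% of all genes. The 12 endothelial markers summed to 258, 81.6 and 40.7 CPM and were all highest in library 1, as were 42.4% of all genes with reads. Cdh5 was at 49.1, 6.03 and 0 CPM. The 12 macrophage markers summed to 231, 27.2 and 18.6 CPM, and 10 of the 11 with reads were highest in library 1. C1qa, a complement gene of tissue macrophages, was at 48.3, 1.76 and 0 CPM and Lyz2 at 58.9, 3.47 and 0.175 CPM. The 9 peritubular myoid markers summed to 493, 838 and 234 CPM, mostly Acta2, smooth muscle actin, at 320, 576 and 73.3 CPM. Of the 10 Leydig markers, Cyp17a1, Hsd3b6, Insl3 and Lhcgr had no reads, and most of the list's 158, 219 and 143 CPM was Scarb1, a lipoprotein receptor with a wide tissue range. The T and NK cell list summed to 14.95, 133 and 105 CPM and the erythroid list to 9.65, 72.0 and 39.3 CPM. Cd4, Cd8a and Klrb1c had no reads in any library, and Hba-a1, a globin gene, was at 0.442, 49.9 and 13.0 CPM. Library 1 held the highest Sertoli, endothelial and macrophage sums and library 2 the highest sums of the other 4 lists, so no order of the libraries held for all.

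**Figure D3:**
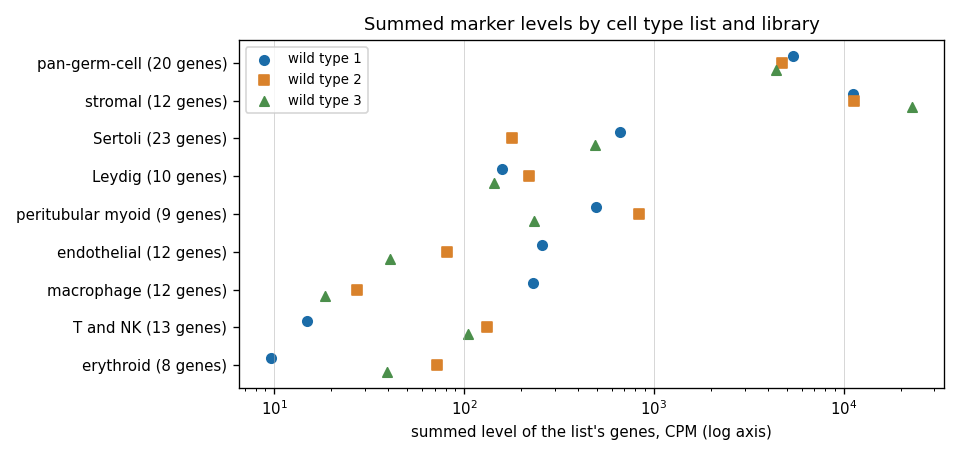
Summed level of each cell type's marker list in CPM on a log axis, with a symbol for each library. The germ and stromal sums lie between 4372 and 22798 CPM, and the sums of all other lists lie between 9.65 and 838 CPM.

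Across all protein-coding genes the RNA was spread over many genes. Of 21870 genes, 5431 had no reads in any library, 2749 had a mean below 1 CPM and 4215 between 1 and 10 CPM. A further 7166 lay between 10 and 100 CPM, 2243 between 100 and 1000 CPM, and 66 at 1000 CPM or more. The 2243 genes of the upper middle class took 52.4% of protein-coding reads and the 66 highest took 16.2%. Promoters grew richer in CG pairs with level, from a median of 2 in genes without reads through 10 between 1 and 10 CPM to 19 in the highest class. Of 948 genes on the X chromosome 252 were expressed (26.6%), against 32.9% of autosomal genes. Y-linked genes were read in every library, as for Ddx3y at 121, 209 and 96.4 CPM, and 8 of 183 were expressed. Xist, the RNA of the inactive X of females, was at 0.368 CPM at most.

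Protein-coding genes with the most RNA per length included many of energy supply and protein synthesis, and a pair of early response genes. The 20 highest by mean TPM were mt-Nd1, mt-Co1, mt-Cytb, Eef1a1, Fos, Ubb, Rps3a1, Rplp0, Rpl4, mt-Nd2, Ptma, mt-Nd4, Hsp90aa1, Cnbp, Fth1, Rps2, Nudc, Tuba3a, Rps6 and Egr1. With the longest transcript in place of all exons, 17 of the 20 stayed in the set. Eef1a1, which brings aminoacyl-tRNA to the ribosome, was at 8787, 8516 and 8627 CPM. The mitochondrial genes took 5.46%, 4.73% and 3.03% of reads and the ribosomal protein genes 3.09%, 2.68% and 1.97%. Both shares were highest in library 1 and lowest in library 3. Of the 83 ribosomal protein genes, all with reads, 69 were highest in library 1. The same held for 42.4% of all protein-coding genes with reads and for 31.2% of those averaging 10 CPM or more. Levels of genes with near-identical copies elsewhere in the genome are uncertain, because how reads with several matches were counted is not given. Gapdh, a glycolytic enzyme with many processed copies, was listed at 60.2, 29.2 and 54.3 CPM beside 1084, 1674 and 1562 CPM for Actb. Among the 13 proteins encoded in mitochondria, which are transcribed together, listed levels ran from 28116 TPM for mt-Nd1 to 26.2 TPM for mt-Co3 and no reads for mt-Atp8.

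Transcription factors were led by the immediate early genes, whose RNA rises within minutes of a stimulus in many cell types. Of 681 factors in 35 families, 199 were expressed (29.2%). Fos was at 2004, 5059 and 11056 CPM, so library 3 held more than 5 times as much as library 1. Egr1 was at 2691, 3654 and 4326 CPM, Junb at 358, 1389 and 1063 CPM, Jun at 320, 498 and 1108 CPM and Fosb at 913, 560 and 1582 CPM. Ier2, another early gene, was at 284, 1791 and 1036 CPM. The genes did not share an order of libraries. While Fos, Jun, Junb, Egr1 and Ier2 were lowest in library 1, Fosb was lowest in library 2. Atf3 (159, 121 and 68.9 CPM) and Dusp1 (204, 260 and 153 CPM), also early genes, were lowest in library 3. Jund, of the same family, was at 1.69, 0.800 and 0.700 CPM. Its exons overlap those of Gm11175 on the opposite strand, as those of Jun and Junb overlap other genes. The use of strand in counting is not given, so the level of Jund is uncertain. Whether reads were lost there was not tested. Cells had passed through digestion and sorting before lysis, and the part of these steps in the levels was not tested.

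The other factors among the 10 highest were Id3, Atf4, Id1, Irf1 and Nr4a1. Id3 and Id1, which block bHLH factors and respond to BMP, were at 364, 802 and 228 CPM and at 147, 311 and 113 CPM, both highest in library 2 and lowest in library 3. Atf4, a factor of the amino acid and stress response, was steady at 448, 470 and 510 CPM. Irf1, an interferon response factor, was at 194, 368 and 452 CPM. Nr4a1, an orphan nuclear receptor of the early response, was at 154, 632 and 38.1 CPM. Hes1, a target of Notch, was at 73.4, 306 and 33.5 CPM and shared that order. Dmrt1, the germ and Sertoli cell factor, followed at 117, 245 and 205 CPM. Tcf7 was steady at 209, 180 and 178 CPM. By family, against 29.2% of all factors, the expressed share was lowest for the RHOX (0 of 32), PAX (0 of 9) and HOX genes (1 of 39). It was highest for the NFI and NFY (6 of 7), MEF2 and SRF (4 of 5) and E2F and DP factors (7 of 10). Of the larger families the bZIP factors had 26 of 49 expressed, the KLF and SP factors 13 of 26, the bHLH factors 25 of 78 and the nuclear receptors 12 of 47.

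Receptors of several pathways were read. Of 171 receptor genes 50 were expressed (29.2%), and the median receptor had 6.00 TPM. Itgb1, the common integrin beta chain, was highest at 271, 405 and 410 CPM. Axl, a receptor of GAS6, was at 149, 141 and 241 CPM and Igf1r at 272, 127 and 234 CPM. Of 6 genes in the GDNF receptor group 5 were expressed, and Gfra1 and Ret led it with 81.8 ± 38.9 and 59.9 ± 26.6 TPM (SD, n = 3). Of 14 receptors of the TGF-beta family 6 were expressed. Bmpr1a was steady at 88.4, 70.9 and 102 CPM and Bmpr2 at 99.2, 96.7 and 83.3 CPM, but Tgfbr1 was at 23.2, 36.9 and 0 CPM. Of 17 frizzled, LRP and LGR receptors and their regulators Znrf3 alone was expressed, at 63.6, 52.0 and 47.4 CPM. The share was 5.88%, against 32.4% of all protein-coding genes. With library 3 left out, 5 of the 17 reached the level called expressed in both others (29.4%), against 38.2% of all genes. The low share thus rested largely on library 3. Ryk, Ror2 and Ptk7, which also take part in Wnt signalling, are counted among the tyrosine kinases, where 15 of 53 were expressed, these 3 included. Fgfr1, the FGF receptor with the highest level, was at 69.1, 47.2 and 142 CPM. Ifngr1, a chain of the interferon-gamma receptor, was at 70.3, 156 and 0 CPM, whereas its partner Ifngr2 was steady at 47.4, 54.5 and 48.0 CPM. Rara, a retinoic acid receptor, was low and steady at 13.6, 14.2 and 12.8 CPM. Fshr, Esr2, Lhcgr and Pgr were each at or under 3.39 CPM in every library.

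Ligands were fewer, with 22 of 144 expressed (15.3%, against 32.4% of all protein-coding genes) and a median of 1.72 TPM. Of the 10 highest ligands 8 were highest in library 3, as were 39.7% of the 9475 genes averaging 10 CPM or more. A choice by mean level favours genes that are very high in a single library. Of the 119 ligands with reads 62 were highest in library 1 and 26 in library 3, against 42.4% and 28.3% of all genes with reads. Cxcl12, a chemokine that guides germ cells, was at 354, 357 and 716 CPM, and Ptn, a heparin-binding growth factor, at 150, 184 and 381 CPM. Igf1 was at 315, 166 and 666 CPM and Inhba, the activin A subunit, at 222, 176 and 479 CPM. Ccl2, a monocyte attractant, was at 60.5, 87.4 and 128 CPM. Hdgf and Mdk went the other way, at 239, 192 and 64.6 CPM and at 42.9, 36.3 and 22.1 CPM. Areg, an EGF receptor ligand, was at 3.83, 0 and 122 CPM, so its place among the 10 highest ligands rests on library 3. None of 22 FGF genes and none of 5 GDNF family ligands was expressed. Kitl, the KIT ligand, was at 34.1, 16.3 and 0.117 CPM.

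Ligands and receptors were not always found as pairs. Cxcl12 had 129, 138 and 304 TPM, while its receptor Cxcr4 had 4.62, 8.86 and 0.448 TPM and Ackr3 4.53, 0.604 and 1.09 TPM. Gas6 (48.5, 74.8 and 85.1 CPM) and Pros1 (71.6, 64.9 and 54.0 CPM) were found with their receptors Axl and Tyro3 (33.4, 11.6 and 63.2 CPM). Inhba was found with the activin receptors Acvr2a (13.8, 17.98 and 17.6 CPM) and Acvr2b (34.6, 39.9 and 10.6 CPM). Wnt5a was at 146, 83.8 and 89.8 CPM together with its receptors Ryk (142, 61.8 and 42.6 CPM) and Ror2 (16.4, 17.4 and 86.4 CPM). The data do not tell which cells made the ligand and which the receptor.

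**Figure D4:**
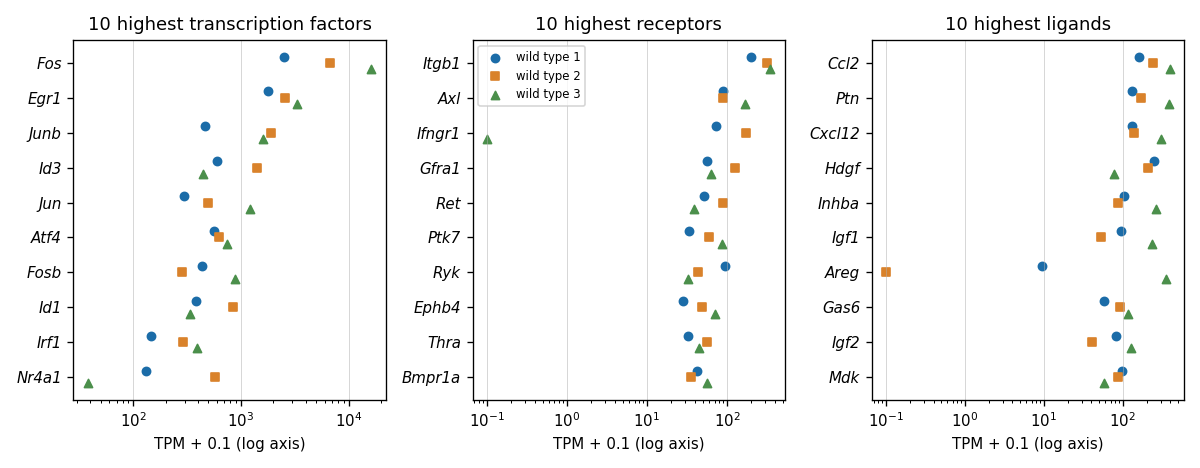
Levels of the 10 highest transcription factors, receptors and ligands by mean TPM, in TPM + 0.1 on log axes, with a symbol for each library. Fos reaches the highest level of all genes shown, Ifngr1 is without reads in library 3, and Areg is without reads in library 2.

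Cell cycle genes were active in every library, with different phases on top. Of 30 genes of G1/S and replication 28 were expressed, and 24 were highest in library 3, where 39.7% of the 9475 genes were highest. Their sum was 5330, 6082 and 9610 CPM. The helicase subunits Mcm3 (372, 537 and 856 CPM) and Mcm6 (376, 743 and 797 CPM) and the ribonucleotide reductase Rrm1 (413, 454 and 1154 CPM) followed that order, while Cdk4 (493, 351 and 321 CPM) did not. Of 24 genes of G2/M 22 were expressed and 15 were highest in library 2, against 29.1% of all genes. Ccnb1, the mitotic cyclin, was at 310, 544 and 137 CPM and Cdc20, an activator of mitotic exit, at 228, 398 and 67.5 CPM, both lowest in library 3. Mki67, the common proliferation marker, was at 349, 153 and 499 CPM. These genes are used by all dividing cells, so the germ and stromal parts cannot be told apart.

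Genes of maintenance methylation had more RNA per length than those of new methylation, with 181 ± 94.9 TPM for Dnmt1 and 317 ± 236 TPM for Uhrf1 against 41.0 ± 15.6 TPM for Dnmt3a and 51.9 ± 40.4 TPM for Dnmt3b (SD, n = 3). Dnmt1 was at 270, 341 and 614 CPM and its partner Uhrf1 at 301, 208 and 722 CPM, both highest in library 3. Dnmt3a was at 179, 168 and 283 CPM and Dnmt3b at 29.5, 68.1 and 142 CPM. Dnmt3l, the cofactor of new methylation in fetal male germ cells, was at 2.28, 1.71 and 0 CPM, and Dnmt3c, which acts on transposon promoters, was under the 3-read floor in libraries 1 and 2 and at 3 reads in library 3.

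The spread between libraries was wide and depended on level. Over the 9475 genes that averaged 10 CPM or more, the median ratio of the highest to the lowest library was 2.32, and the median coefficient of variation was 42.0%, against 3.63% from counting alone. Between 10 and 50 CPM 10.8% of genes were steady and 24.8% variable. From 1000 CPM upward 47.0% were steady and none variable. The common biological coefficient of variation from edgeR was 57.9%, and it was 48.0% without library 3. Of the 1356 variable genes 899 were lowest in library 3, and 508 had fewer than 3 reads there.

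The steadiest genes were sought only among those that averaged 50 CPM or more. The 10 smallest ratios there were those of Esco2, Mcl1, Eef1a1, Nudc, Trpm7, Tpm3, Tmed7, Arfip2, Swap70 and Mrtfb. Esco2, a cohesin acetyltransferase, was at 125.8, 124.2 and 124.2 CPM. Mcl1, a survival factor of the BCL2 family, was at 86.5, 88.6 and 87.1 CPM, and Nudc, a dynein-associated chaperone, at 1241, 1269 and 1281 CPM.

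For each library the 5 genes with the largest ratio to the next library, at a mean of 50 CPM or more, were named. In library 1 these were Emp1 (156, 10.6 and 28.0 CPM), Zfp318, Sfmbt2, Odc1, which starts polyamine synthesis (273, 72.1 and 12.4 CPM), and the small heat shock gene Hspb1 (253, 51.2 and 67.0 CPM). In library 2 they were Rgs5, a gene known from pericytes (8.91, 246 and 0 CPM), Ccdc85b, Micu2, Rasl11b and Tusc2. In library 3 the collagens Col6a6 (11.0, 10.03 and 286 CPM) and Col6a5 (13.0, 1.17 and 193 CPM) were named with Pcdhb7, Gm4969 and Samsn1. Some genes were missing from a single library, such as Gja1, a gap junction gene, at 51.3, 0 and 57.6 CPM and Cfap298 at 160, 192 and 0 CPM.

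**Figure D5:**
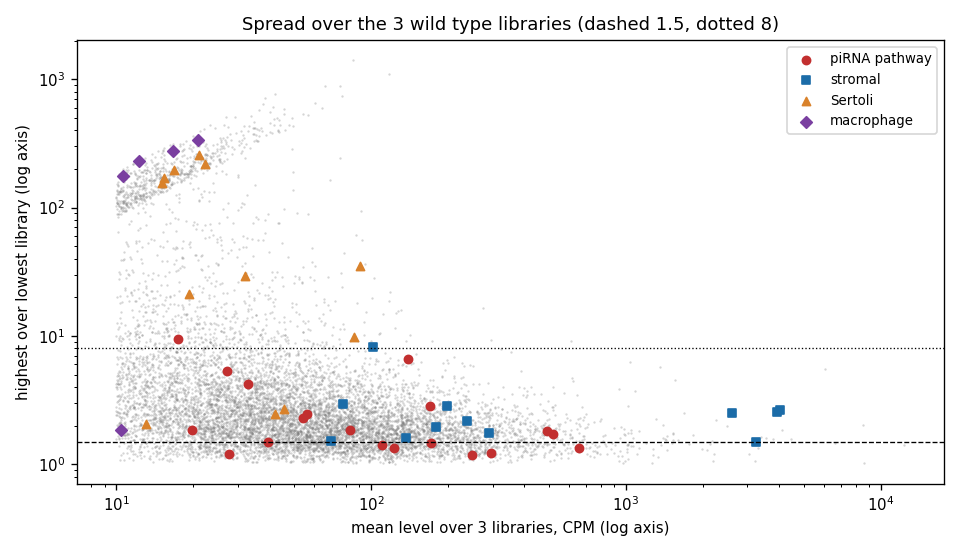
Each grey point is a protein-coding gene averaging 10 CPM or more, at its mean level (x axis, CPM) and the ratio of its highest to its lowest library (y axis), both on log axes. The lines mark the ratios of 1.5 and 8; 8 of 19 piRNA pathway genes lie on or below the lower line and 9 of 12 Sertoli markers on or above the upper.

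Of 8582 long non-coding RNA genes 56 reached 10 CPM in all 3 libraries (0.653%). The highest was Gm26917 at 4839, 7029 and 10621 CPM, or 7356 ± 3416 TPM (SD, n = 3), a level within the range of the 20 highest protein-coding genes. It lies at chromosome 17, 39843013 to 39846341 (GRCm38). Although annotated as a long non-coding RNA, Gm26917 was left out along with the ribosomal RNA genes in the alternative library total. Whether its reads are ribosomal RNA was not tested. H19, an imprinted RNA of fetal mesenchyme and other tissues, was at 339, 74.0 and 569 CPM, and its neighbour Igf2 at 158, 73.6 and 207 CPM, in the same order of libraries. Malat1, a nuclear RNA found in most cells, was at 342, 224 and 251 CPM.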

How the data were processed

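The deposited table gives unscaled whole-number read counts by Ensembl gene, with column totals that differ. Per the labels' protocols, libraries were made by Smart-Seq2. The submitters' processing notes name bcl2fastq and the build mm10. For the aligner, counter, annotation and use of strand, the choice is not given in the sources used here. Of 51912 identifiers 51719 (99.6%) matched GENCODE M21, used for symbols and exon lengths. Another 3 columns of the table were not used.

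CPM are counts over the library total. TPM use the summed exon length of a gene. TMM factors and the common dispersion came from edgeR 4.0.16 in R 4.3.3 (filterByExpr, minimum count 10, minimum total 15), with an intercept only. Other steps ran in Python 3.11.15 with pandas 2.3.3, and figures in matplotlib 3.10.9. With 1 group no test was made. The steady and variable calls were tested on simulated counts that held counting error only, so the wider spread of these libraries was not covered. Promoters came from RefSeq on GRCm38.p6.

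The members and lists were chosen with earlier results of these data known. Named genes are the 6 markers and the sort genes, the 20 highest by TPM, the 10 highest factors, receptors and ligands, the 3 highest of each other list, the 10 steadiest genes and the 5 with the highest ratio in each library, the last 2 groups at a mean of at least 50 CPM. Further list members and other genes were picked after their values were seen. Alternatives were TMM and RLE scaling, a total without mitochondrial, haemoglobin and ribosomal RNA genes, other filters and ratios, the longest transcript as length, and each library left out.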

Additional observations from a re-analysis of the deposited data

How the results depend on the processing

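The number of expressed genes moved by less than 1.5 times under every alternative, from 7079 to between 7085 and 9639. TMM or RLE scaling and the reduced total kept 91.7% to 100% of the expressed, steady and variable genes. The steady count was 1677 and came to 3408 to 5122 with a library left out, the highest without library 3, to 2524 without a filter on low counts and to 559 at the stricter ratio. The variable count was 1356 and came to 163 to 969 with a library left out, the lowest without library 3, and to 5324 without the filter. For a given gene the ratio over fewer libraries cannot be higher. More steady and fewer variable calls with a library left out were therefore largely set in advance. The common biological coefficient of variation was 57.9%, lay between 48.0% and 63.8% with a library left out, and was 146.5% without the filter. The summed germ and stromal levels moved by less than 1 SD under each scaling. With a library left out, the stromal sum of 15085 CPM came to between 11228 and 17055 CPM. The germ sum of 4845.5 CPM came to between 4554.5 and 5082.2 CPM. Leaving out 1 of 3 values cannot move their mean by 1 SD, so these sums were not held against that limit. With the longest transcript as length, 22 of the 121 named TPM values moved by more than 1 SD. No paired analysis was possible because only 1 group was described. Depth limits single genes to 3 reads, or 0.160 to 0.221 CPM.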
